A study of Mus musculus with 4 samples.

Results

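The 10 hemangioblast and endothelial genes Etv2, Kdr, Tal1, Lmo2, Lyl1, Gata2, Fli1, Runx1, Cdh5 and Tek, chosen by symbol, were all found among the 24421 genes of the count table, and all 10 were among the 14393 genes that had at least 10 reads in at least 1 library. Blood and blood vessels arise together in the early mouse embryo. Mesoderm that leaves the primitive streak turns on Etv2 and the VEGF receptor Kdr and becomes hemangioblasts, progenitors of both endothelial and primitive blood cells. The transcription factors Tal1, Lmo2, Lyl1, Gata2, Fli1 and Runx1 then act in both branches, endothelial cells put the adhesion protein encoded by Cdh5 and the angiopoietin receptor encoded by Tek on their surface, and the erythroid branch turns on Gata1, Klf1 and the embryonic globins.

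The genes were followed in 4 RNA-seq libraries of whole ICR mouse embryos to ask at which point ahead of the erythroid genes the blood and vessel lineage differs in Ddx6 knockout embryos. DDX6 is an RNA helicase that represses mRNAs in P-bodies and in the microRNA pathway. One library held wild-type embryos of embryonic day 7.5 (E7.5 WT), 1 held wild-type embryos of embryonic day 8.5 (E8.5 WT), and 2 held homozygous Ddx6 knockout embryos of embryonic day 8.5 (KO1 and KO2). The null allele came from a floxed Ddx6 exon removed in the germ line with a CAG-Cre deleter strain, so every cell of the mutant embryo carried it. Each KO library was a pool: KO1 joined an embryo that had not reached the head-fold stage and one with a head fold, and KO2 held only embryos that had not reached it. Per the study's text the KO embryos were delayed for their age, and delay and genotype cannot be told apart in the comparison with E8.5 WT. With 1 library for each WT stage, the differences below have no replicate check on the WT side.

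Total counts ran from 8198402 reads in KO1 to 12562640 in E8.5 WT. Ddx6 had 2943 reads at E7.5 and 5715 at E8.5 in WT embryos, against 706 in KO1 and 929 in KO2, which made it 5.53-fold lower in KO1 and 6.10-fold lower in KO2 than in E8.5 WT. KO2 stood apart in summed trophoblast and uterine NK cell markers, but not in summed decidua markers, whose sums were alike in E7.5 WT and KO2. The summed level of 13 trophoblast markers was 73.4 CPM (reads scaled to a common library size) at E7.5 and 20.8 at E8.5 in WT embryos, 36.9 in KO1 and 908 in KO2, with 27, 1, 3 and 4156 reads of Prl3d1, some of which its near-identical copies Prl3d2 and Prl3d3 may share, whereas the trophoblast markers Tpbpa and Prl3b1 were at 0 in every library. Ascl2, another listed trophoblast marker, was instead highest in E7.5 WT, with 358, 10, 11 and 54 reads in the same order. The 8 uterine NK cell markers summed to 2.86, 0.326, 2.98 and 19.0 CPM in the same order, and the 7 decidua markers to 147, 20.8, 35.1 and 144 CPM. Most decidua reads of E7.5 WT (1318 of 1742) and KO2 (1433 of 1754) were of Prl8a2. Single decidua markers differed, with 135, 1, 0 and 25 reads of Prl3c1 and 1, 32, 35 and 8 of Lum. Of 9 adult blood markers, the 6 adult globin genes were at 0 reads in all 4 libraries, but these are near-identical gene copies whose shared reads may not be counted. Results that rest on KO2 are therefore given for each KO library. E7.5 WT also exceeded E8.5 WT in the summed trophoblast, decidua and uterine NK cell markers. The part of such cells in the comparisons with E7.5 WT was not tested.

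Promoter windows from RefSeq (build GRCm38.p6) were matched for 7 of the 10 genes, and those of Lmo2, Fli1 and Cdh5 were not used here. The 250 bases ahead of the start are shown for Etv2 and Kdr, which open the lineage, for Lyl1, the single gene past 2-fold below E8.5 WT in both KO libraries, and for Tek, the gene on which KO1 and KO2 differed most. Capitals mark the ETS core GGAA on either strand, the motif bound by ETS factors such as Etv2 and Fli1.
Etv2 (chr7:30635853-30636102, - strand): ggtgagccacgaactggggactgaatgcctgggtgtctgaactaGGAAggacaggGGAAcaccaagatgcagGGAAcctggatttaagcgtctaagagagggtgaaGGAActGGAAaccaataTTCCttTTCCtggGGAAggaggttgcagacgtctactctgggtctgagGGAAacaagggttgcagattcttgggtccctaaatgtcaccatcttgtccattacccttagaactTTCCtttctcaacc
Kdr (chr5:75978456-75978705, - strand): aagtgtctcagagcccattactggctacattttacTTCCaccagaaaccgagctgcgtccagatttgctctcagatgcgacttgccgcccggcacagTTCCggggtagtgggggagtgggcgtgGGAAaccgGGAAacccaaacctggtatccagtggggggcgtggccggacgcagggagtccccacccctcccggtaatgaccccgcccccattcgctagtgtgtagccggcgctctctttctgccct
Lyl1 (chr8:84701207-84701456, + strand): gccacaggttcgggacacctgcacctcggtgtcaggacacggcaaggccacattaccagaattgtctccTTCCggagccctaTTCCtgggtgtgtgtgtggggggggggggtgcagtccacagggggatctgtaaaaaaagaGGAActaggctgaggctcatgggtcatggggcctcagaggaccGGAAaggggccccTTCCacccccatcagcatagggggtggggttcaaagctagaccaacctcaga
Tek (chr4:94739039-94739288, + strand): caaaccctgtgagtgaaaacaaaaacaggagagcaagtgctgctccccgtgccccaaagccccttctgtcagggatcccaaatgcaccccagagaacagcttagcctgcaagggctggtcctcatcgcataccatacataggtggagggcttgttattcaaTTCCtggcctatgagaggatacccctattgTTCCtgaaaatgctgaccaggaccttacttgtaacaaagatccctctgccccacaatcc
Etv2 held 10 matches, Lyl1 5, Kdr 4 and Tek 2. A match is a short string and 93.4% of 32851 RefSeq promoter windows of this length held at least 1, with a mean of 2.91, although only 63 windows (0.192%) held 10 or more. The GATA motif AGATAA, present in 9.99% of windows, was found in none of these 4 and once in a Tal1 window, and the E-box CANNTG, present in 66.2%, was found 2 times in Tek and once each in Kdr and Lyl1. Motifs were counted on both strands and separately where they shared bases, and the matches describe letters in these windows only.

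The genes at the top of the lineage were expressed in both KO libraries. Etv2, the ETS factor that starts the hemangioblast program (chromosome 7, 30633616 to 30635852, GRCm38), had 140 reads at E7.5 and 228 at E8.5 in WT embryos, against 104 in KO1 and 135 in KO2, or 11.8, 18.6, 12.4 and 11.1 CPM after TMM scaling. Both KO libraries lay near E7.5 WT and below E8.5 WT. Log2 differences in this text are of TMM-scaled CPM with a prior count of 2, and intervals are exact 95% Clopper-Pearson intervals that cover counting error only. Etv2 was lower than E8.5 WT by a log2 difference of -0.58 in KO1 (interval -0.93 to -0.24) and -0.73 in KO2 (-1.06 to -0.43), a mean of -0.66 ± 0.11 (SD, n = 2), the smallest spread between the KO libraries among the 10 genes. Against E7.5 WT the differences were 0.07 (-0.31 to 0.45) and -0.09 (-0.44 to 0.26), both with intervals that hold 0.

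Kdr (chromosome 5, 75932827 to 75978458), the main signaling receptor for VEGF-A on these progenitors, had 669 reads at E7.5 and 2259 at E8.5 in WT embryos, against 1491 in KO1 and 1255 in KO2, or 56.2, 184, 178 and 103 CPM. KO1 was level with E8.5 WT within counting error, at a log2 difference of -0.05 (-0.15 to 0.05), and KO2 lay between the WT stages. KO2 was 1.78-fold below E8.5 WT, at -0.83 (-0.94 to -0.74), and 1.83-fold above E7.5 WT. Kdr and Etv2 thus did not pass the 2-fold criterion against E8.5 WT in either KO library.

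**Figure D1:**
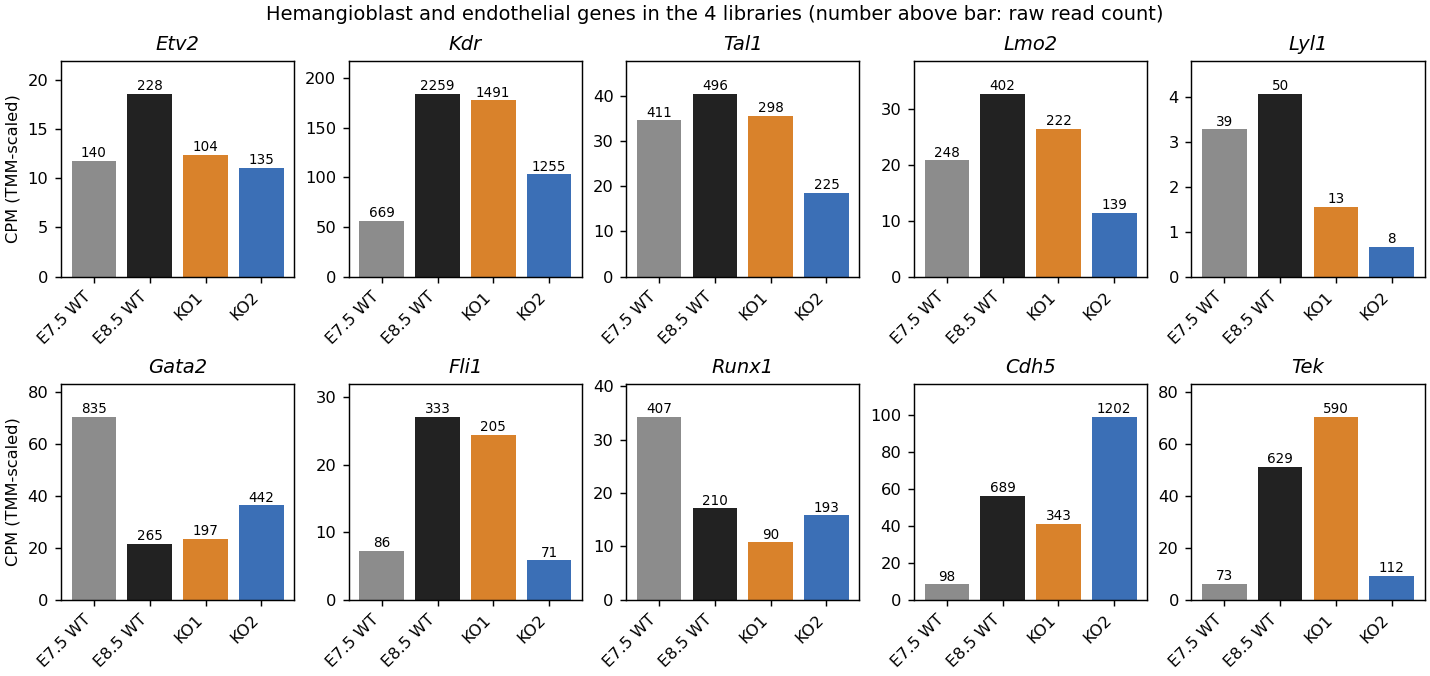
Bars give TMM-scaled CPM (y axis, from 0, own scale for each gene) of the 10 genes in the WT libraries of E7.5 and E8.5 and in both KO libraries, 1 library per bar, and the number above each bar is its raw read count. Lyl1 is low in both KO libraries, Tek and Fli1 are near E8.5 WT in KO1 and near E7.5 WT in KO2, and Cdh5 is highest in KO2.

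Of the 6 transcription factors, Lyl1 was the one more than 2-fold below E8.5 WT in both KO libraries. Tal1 (chromosome 4, 115056426 to 115071755), the basic helix-loop-helix factor required for all blood formation, had 411 reads at E7.5 and 496 at E8.5 in WT embryos, against 298 in KO1 and 225 in KO2, or 34.6, 40.4, 35.5 and 18.5 CPM. The LIM protein Lmo2 (chromosome 2, 103957986 to 103981878), which bridges Tal1 and GATA factors on DNA, had 248, 402, 222 and 139 reads, or 20.9, 32.7, 26.4 and 11.4 CPM. In both genes KO1 lay between the WT stages and KO2 was the lowest library. Tal1 differed from E8.5 WT by -0.18 in KO1 (-0.40 to 0.02) and by -1.12 in KO2 (-1.36 to -0.90), and Lmo2 by -0.31 (-0.55 to -0.07) and -1.51 (-1.81 to -1.24). The profiles of Tal1 and Lmo2 over the 4 libraries were the most alike among the 45 pairs of the 10 genes, at a Euclidean distance of 0.355 between centred log2 CPM values.

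Lyl1 (chromosome 8, 84701457 to 84704715), a close relative of Tal1, had 39 reads at E7.5 and 50 at E8.5 in WT embryos, against 13 in KO1 and 8 in KO2, or 3.28, 4.07, 1.55 and 0.656 CPM. Both KO libraries lay below both WT libraries. It was 2.63-fold lower than E8.5 WT in KO1, at a log2 difference of -1.30 (-2.40 to -0.49), and 6.20-fold lower in KO2, at -2.35 (-3.92 to -1.54). Lyl1 was also the gene with the fewest reads, and the KO1 interval reaches differences smaller than 2-fold. Its exons overlap those of Nfix on the opposite strand, and the reads were counted by strand.

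Fli1 (chromosome 9, 32422204 to 32542861), an ETS factor of endothelial cells and megakaryocytes, had 86 reads at E7.5 and 333 at E8.5 in WT embryos, against 205 in KO1 and 71 in KO2, or 7.23, 27.1, 24.4 and 5.83 CPM. KO1 was level with E8.5 WT within counting error (-0.15, -0.41 to 0.10), and KO2 was level with E7.5 WT within counting error (-0.30, -0.79 to 0.16). KO2 was 4.65-fold below E8.5 WT, at -2.18 (-2.61 to -1.84).

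Gata2 and Runx1 were highest in the E7.5 WT embryos. Gata2 (chromosome 6, 88193891 to 88207032), a factor of early blood progenitors that trophoblast cells also express, had 835 reads at E7.5 and 265 at E8.5 in WT embryos, against 197 in KO1 and 442 in KO2, or 70.2, 21.6, 23.5 and 36.3 CPM. KO1 was level with E8.5 WT within counting error (0.12, -0.15 to 0.39), and KO2 was 1.68-fold above it, in the library with the highest trophoblast marker level. The part of those cells in the Gata2 levels of KO2 and of E7.5 WT was not tested. Runx1 (chromosome 16, 92601466 to 92826149), which definitive blood formation requires, had 407, 210, 90 and 193 reads, or 34.2, 17.1, 10.7 and 15.8 CPM. Here KO1 was the lowest library, 1.59-fold below E8.5 WT (-0.66, -1.05 to -0.31), and KO2 was level with E8.5 WT within counting error (-0.11, -0.40 to 0.18). Against E7.5 WT, Runx1 was 3.19-fold lower in KO1 and 2.16-fold lower in KO2.

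The 2 endothelial surface genes went in opposite directions in KO2. Cdh5 (chromosome 8, 104101625 to 104144511), which encodes VE-cadherin of endothelial junctions, had 98 reads at E7.5 and 689 at E8.5 in WT embryos, against 343 in KO1 and 1202 in KO2, or 8.24, 56.1, 40.8 and 98.6 CPM. All 3 libraries of embryonic day 8.5 were far above E7.5 WT, and KO2 was the highest. Cdh5 differed from E8.5 WT by -0.46 in KO1 (-0.65 to -0.27) and 0.81 in KO2 (0.68 to 0.95). Tek (chromosome 4, 94739289 to 94874976), the receptor for angiopoietins, had 73 reads at E7.5 and 629 at E8.5 in WT embryos, against 590 in KO1 and 112 in KO2, or 6.14, 51.2, 70.3 and 9.19 CPM. KO1 was the highest library and KO2 was close to E7.5 WT. Tek differed from E8.5 WT by 0.46 in KO1 (0.29 to 0.62) and by -2.45 in KO2 (-2.78 to -2.19), and was 7.64-fold lower in KO2 than in KO1. For each Tek read there were 1.34 Cdh5 reads at E7.5 and 1.10 at E8.5 in WT embryos, 0.581 in KO1 and 10.7 in KO2. In bulk embryos, fewer cells of a type and less RNA per cell cannot be told apart.

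**Figure D2:**
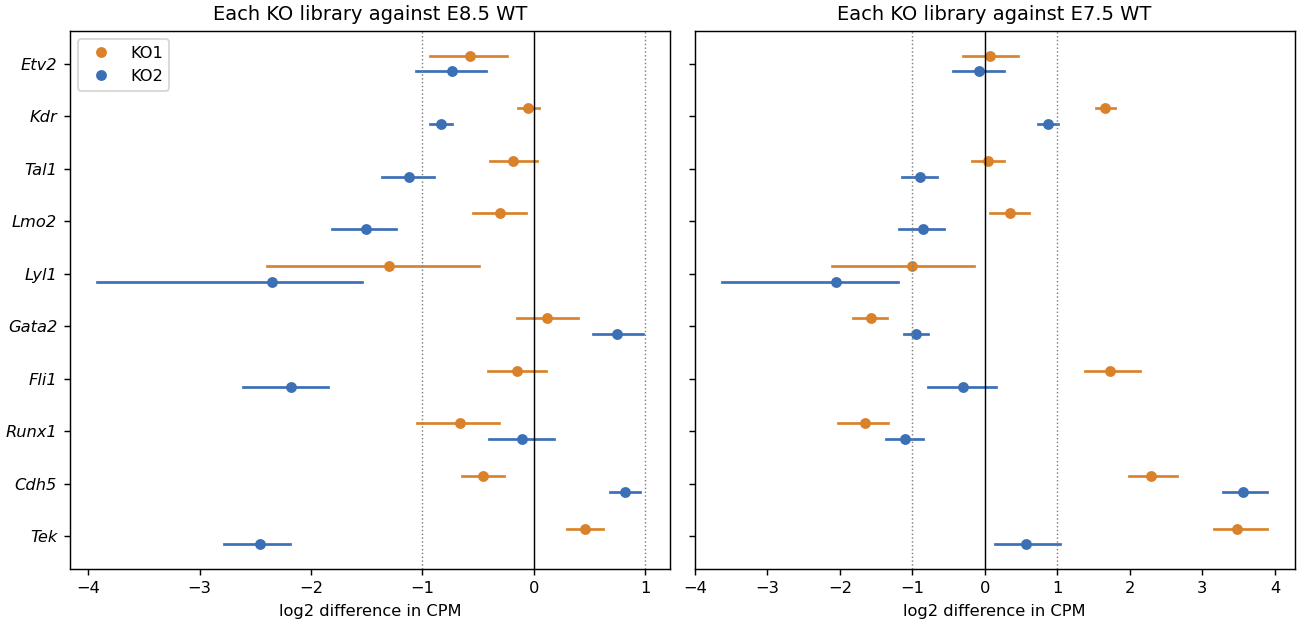
Points give the log2 difference in TMM-scaled CPM of KO1 (orange) and KO2 (blue) from E8.5 WT (left) and E7.5 WT (right) for each gene, lines are exact 95% counting intervals, and dotted lines mark 2-fold. In the left panel only Lyl1 lies beyond 2-fold in both KO libraries. In the right panel Cdh5 lies above, and Lyl1 and Runx1 lie below, 2-fold in both.

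Counted over the 10 genes, 1 was more than 2-fold lower than E8.5 WT in both KO libraries (Lyl1) and 0 were higher, beside 1.79% and 3.44% of the 14393 genes. In KO1 alone, 1 gene was more than 2-fold lower (3.31% of all genes), whereas in KO2 alone 5 were, namely Tal1, Lmo2, Lyl1, Fli1 and Tek (5.91% of all genes). The median difference over the 10 genes was -0.25 in KO1 and -0.98 in KO2, with -0.01 and -0.00127 over all genes. Between the KO libraries, Lmo2, Lyl1, Fli1 and Tek were more than 2-fold lower in KO2 (4 of 10, beside 4.89% of all genes), and Cdh5 was more than 2-fold higher (1 of 10, beside 5.99%).

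The normal change over the same day gives the scale of these differences. Kdr, Fli1, Cdh5 and Tek were more than 2-fold higher in E8.5 WT than in E7.5 WT (4 of 10, beside 12.2% of all genes), by 3.27-, 3.75-, 6.80- and 8.34-fold. Gata2 was 3.26-fold lower (1 of 10, beside 7.82%), and Runx1 lay at the threshold, 2.003-fold lower by reads and -0.99 on the log2 scale with the prior count. Tal1 and Lyl1 differed by 1.17- and 1.24-fold between the stages. Against E7.5 WT, Lyl1 and Runx1 were more than 2-fold lower in both KO libraries (2 of 10, beside 2.7% of all genes) and Cdh5 was more than 2-fold higher in both (1 of 10, beside 6.91%). Lyl1 in KO1 lay at the threshold, with an interval of -2.11 to -0.15 on the log2 scale. The comparisons share the KO and WT libraries, so their values are set side by side and are not independent.

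Per length of merged exons, the order of the levels was headed by Gata2 in E7.5 WT (19.1 RPKM, CPM divided by exon length in kilobases), by Kdr in E8.5 WT (31.0 RPKM) and KO1 (29.97 RPKM), and by Cdh5 in KO2 (24.7 RPKM). In E8.5 WT the order was Kdr, Etv2 (17.7), Lmo2 (17.3), Cdh5 (14.0), Tek (10.9), Tal1 (9.42), Fli1 (8.17), Gata2 (5.85), Runx1 (2.29) and Lyl1 (2.26). The neighbours Etv2 and Lmo2, and Runx1 and Lyl1, did not differ there beyond counting error, and no replicate spread is known. Lyl1 was last in E8.5 WT, KO1 (0.860 RPKM) and KO2 (0.365 RPKM), and Tek was last in E7.5 WT (1.31 RPKM).

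With edgeR's quasi-likelihood test over all genes, 0 of the 10 genes passed an adjusted p of 0.05 in KO against E8.5 WT, as did 0 of 14393 genes (0%). The smallest adjusted p of the 10 was 0.666, and 0 of the 10 had an unadjusted p under 0.05, beside 7.31% of all genes. Against E7.5 WT edgeR called 0 of the 10 (0% of all genes), with a smallest adjusted p of 0.137, and 4 genes, namely Kdr, Gata2, Runx1 and Cdh5, had an unadjusted p under 0.05, beside 24.4% of all genes. DESeq2 gave no adjusted p for Lyl1 in either comparison. Of the other 9 genes it called 0 against E8.5 WT (beside 0.261% of the genes with an adjusted p) and 2 against E7.5 WT (beside 6.21%), Cdh5 at an adjusted p of 1.94e-06 and Kdr at 0.00732. With no filter on low counts, edgeR called 0 of the 10 against E8.5 WT (beside 0.0434% of all genes) and 1, Cdh5, against E7.5 WT (beside 3.95%). These tests take the spread from the 2 KO libraries alone, which leaves 1 residual degree of freedom, and assume that a WT library varies as they do.

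Most erythroid genes downstream were low in both KO libraries. Of 13 listed genes 12 were in the table and 10 passed the count minimum, and 8 of the 10 were more than 2-fold lower than E8.5 WT in both KO libraries, beside 1.79% of all genes. Gata1, the erythroid GATA factor, had 205 reads at E7.5 and 65 at E8.5 in WT embryos, against 5 in KO1 and 12 in KO2. Klf1, which activates globin genes, had 12, 76, 6 and 4 reads, and Gfi1b, a repressor needed for red cell maturation, had 66, 31, 5 and 6. Both KO libraries were more than 2-fold below E8.5 WT in all 3 genes, and for Gata1 and Gfi1b more than 2-fold below E7.5 WT as well. The embryonic globins Hba-x and Hbb-bh1 had 0 and 23 reads at E7.5 and 1221 and 1579 at E8.5 in WT embryos. They had 1 and 3 reads in KO1 and 0 and 3 in KO2. Nfe2 (10, 39, 3 and 5 reads) and Hbb-y (0, 25, 0 and 0) were also among the 8. In the KO libraries, Klf1, Nfe2, Hba-x and Hbb-y did not differ from E7.5 WT beyond counting error. Against E7.5 WT, 4 of the 10 were more than 2-fold lower in both KO libraries, beside 2.7% of all genes. These were Gata1, Gfi1b, Hbb-bh1 and Alas2. Epor, the erythropoietin receptor, did not pass the 2-fold criterion against E8.5 WT in either KO library (-0.45 and -0.15). Alas2, which makes the first enzyme of erythroid heme synthesis, had 133 reads at E7.5 and 67 at E8.5 in WT embryos, against 5 in KO1 and 43 in KO2. It was more than 2-fold below E8.5 WT in KO1 alone, at -2.86 in KO1 and -0.60 in KO2, and 5.93-fold higher in KO2 than in KO1. Alas2 was named after its values were seen. The median of the erythroid list was -2.85 in KO1 and -3.07 in KO2, and -3.15 and -2.999 with genes of 0 reads placed at the floor of 3 reads. For each Gata1 read there were 2.0 Tal1 reads at E7.5 and 7.63 at E8.5 in WT embryos, 59.6 in KO1 and 18.8 in KO2. The KO ratios rest on 5 and 12 Gata1 reads, and Gata1 did not differ between KO2 and KO1 beyond counting error (0.59, -0.88 to 2.58). E8.5 embryos were genotyped from extraembryonic tissue or yolk sac, per the study's methods. How much yolk sac each library held is not known, and its part in the erythroid levels was not tested.

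**Figure D3:**
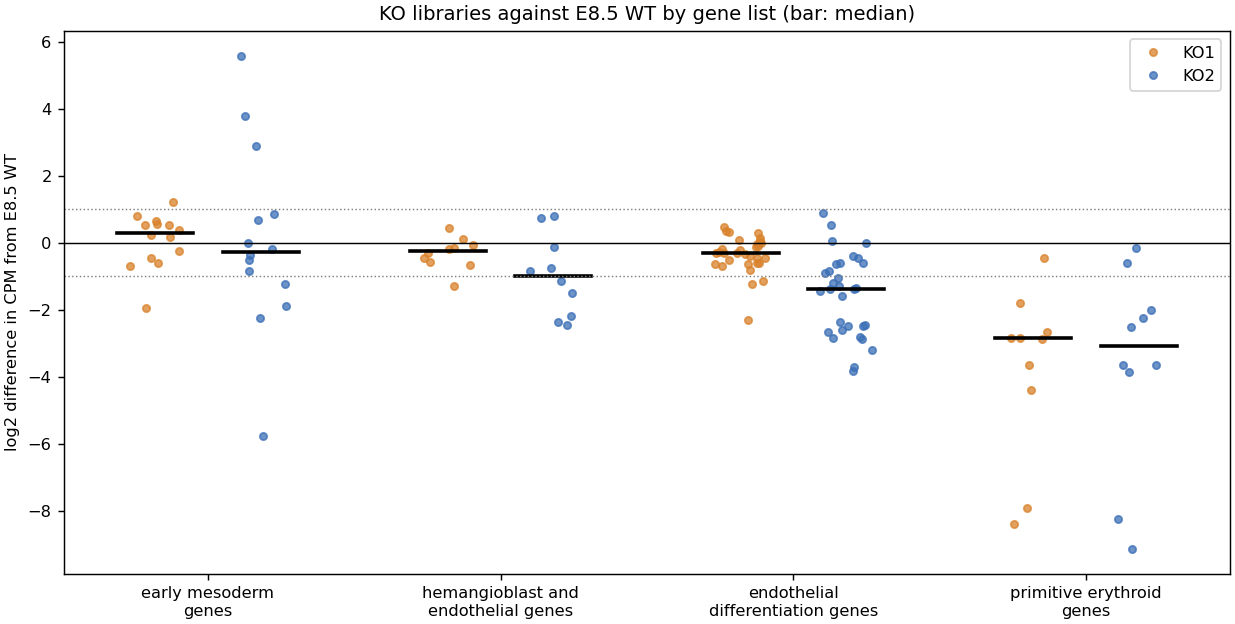
Each point is a gene, with its log2 difference in TMM-scaled CPM from E8.5 WT (y axis) in KO1 (orange) or KO2 (blue), for 4 gene lists (x axis), and bars are medians. The medians of the 10 hemangioblast and endothelial genes are -0.25 and -0.98, and those of the erythroid list are -2.85 and -3.07.

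Upstream of the lineage, the 14 early mesoderm genes had a median difference from E8.5 WT of 0.31 in KO1 and -0.28 in KO2, with 1 more than 2-fold lower in both KO libraries (beside 1.79% of all genes) and 0 higher (beside 3.44%). That gene was Cdx4, a caudal-type factor of the posterior embryo, with 27 reads at E7.5 and 387 at E8.5 in WT embryos, against 68 in KO1 and 5 in KO2. In KO2 alone, Eomes, Mixl1 and Mesp1 were more than 2-fold higher than E8.5 WT (3 of 14, beside 9.41% of all genes). Foxc1, Foxc2, Tbx6 and Cdx4 were more than 2-fold lower (4 of 14, beside 5.91%), so the KO2 median joins changes in both directions. Between the KO libraries, 3 of the 14 were more than 2-fold higher in KO2 (beside 5.99%) and 6 lower (beside 4.89%). Bmp4, the ligand that induces ventral mesoderm, had 472, 501, 545 and 383 reads. The streak gene T had 3864, 934, 829 and 1485 reads, Eomes had 1333, 64, 77 and 3128, and Mixl1 had 292, 72, 41 and 542. KO2 was above E8.5 WT in all 3 genes. Per the study's text, extraembryonic ectoderm also expresses Eomes, and KO2 was the library with the highest trophoblast marker level. The part of extraembryonic cells in the Eomes levels of KO2 and of E7.5 WT was not tested. KO1 differed from E8.5 WT by 0.38 for T (0.24 to 0.51), by 0.80 for Eomes (0.32 to 1.32) and by -0.25 for Mixl1 (-0.85 to 0.31).

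The signaling partners of Kdr and Tek were present as well. Of 9 VEGF ligands and other VEGF receptors, 0 were more than 2-fold lower and 0 higher than E8.5 WT in both KO libraries, beside 1.79% and 3.44% of all genes. In KO2 alone Flt4 was more than 2-fold lower (1 of 9, beside 5.91%), and in KO1 alone Nrp1 was more than 2-fold higher (1 of 9, beside 4.97%). Vegfa, the ligand of Kdr, had 999 reads at E7.5 and 1597 at E8.5 in WT embryos, against 921 in KO1 and 1123 in KO2. Its level was 84.0, 130, 110 and 92.2 CPM, so the KO libraries lay between the WT stages. In the angiopoietin group of 4 genes, 0 were past 2-fold of E8.5 WT in both KO libraries (beside 1.79% of all genes lower and 3.44% higher). However, Angpt1, Tie1 and Ptprb were more than 2-fold lower in KO2 than in KO1 (3 of 4, beside 4.89% of all genes). The same 3 genes were more than 2-fold below E8.5 WT in KO2 alone (beside 5.91%). Angpt1, the activating ligand of Tek, had 2 reads at E7.5 and 76 at E8.5 in WT embryos, against 89 in KO1 and 34 in KO2, and Tie1, the orphan relative of Tek, had 34, 304, 136 and 21. None of 11 partners of the Tal1 and Runx1 complexes (0 genes) was past 2-fold in both, beside 1.79% of all genes lower and 3.44% higher. Their medians were 0.08 for KO1 and -0.14 for KO2. In KO2 alone, Erg and Cbfa2t3 were more than 2-fold below E8.5 WT (2 of 11, beside 5.91% of all genes). Ldb1, which joins the Lmo2 complex, had 2639, 2453, 1772 and 2437 reads, or 222, 200, 211 and 200 CPM, so its level was within 200 to 222 CPM in all 4 libraries.

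The wider endothelial list resembled Tek and Fli1 in its difference between the KO libraries. Of 31 endothelial differentiation genes, 20 were more than 2-fold lower than E8.5 WT in KO2 (beside 5.91% of all genes) and 3 in KO1 (beside 3.31%), with medians of -1.38 and -0.29. The 3 were low in both KO libraries (beside 1.79%), namely the connexin gene Gja5, Plvap of endothelial fenestrae and the matrix gene Mmrn2. Gja5 had 5 reads at E7.5 and 23 at E8.5 in WT embryos, against 2 in KO1 and 7 in KO2. Plvap had 47, 345, 101 and 46 reads, and Mmrn2 had 5, 64, 19 and 5. In these 3 genes KO2 was level with E7.5 WT within counting error. Between the KO libraries, 16 of 31 were more than 2-fold lower in KO2 (beside 4.89%) and 0 were higher (beside 5.99%). The tight junction gene Cldn5 had 11 reads at E7.5 and 76 at E8.5 in WT embryos, against 48 in KO1 and 9 in KO2, and Emcn was near the count minimum with 4, 12, 4 and 4.

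Not all endothelial genes followed that pattern. The interval for KO2 against KO1 lay below 0 in 21 of the 31 list genes and above 0 in 3, and held 0 in the rest. Pecam1, an adhesion protein of endothelial cells and platelets, had 68 reads at E7.5 and 302 at E8.5 in WT embryos, against 128 in KO1 and 302 in KO2, and differed from E8.5 WT by -0.68 in KO1 and 0.01 in KO2. Esam, a related adhesion gene, had 54, 153, 85 and 223 reads, and Sox17, a factor of arterial endothelium that gut endoderm also expresses, had 603, 359, 340 and 664. Esam and Sox17 were chosen after their values were seen. Pecam1, Esam and Sox17 were the 3 of the 31 list genes whose interval for KO2 against KO1 lay above 0, with Sox17 at 0.43 (0.24 to 0.62), and Cdh5 was likewise higher in KO2. There were 57.2 Cdh5 reads for each Tie1 read in KO2, against 2.27 to 2.88 in the other libraries. KO2 was also the library with the highest trophoblast and uterine NK cell marker levels. The part of trophoblast, decidual or uterine NK cells in the Cdh5, Pecam1, Esam and Sox17 levels of KO2 was not tested.

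**Figure D4:**
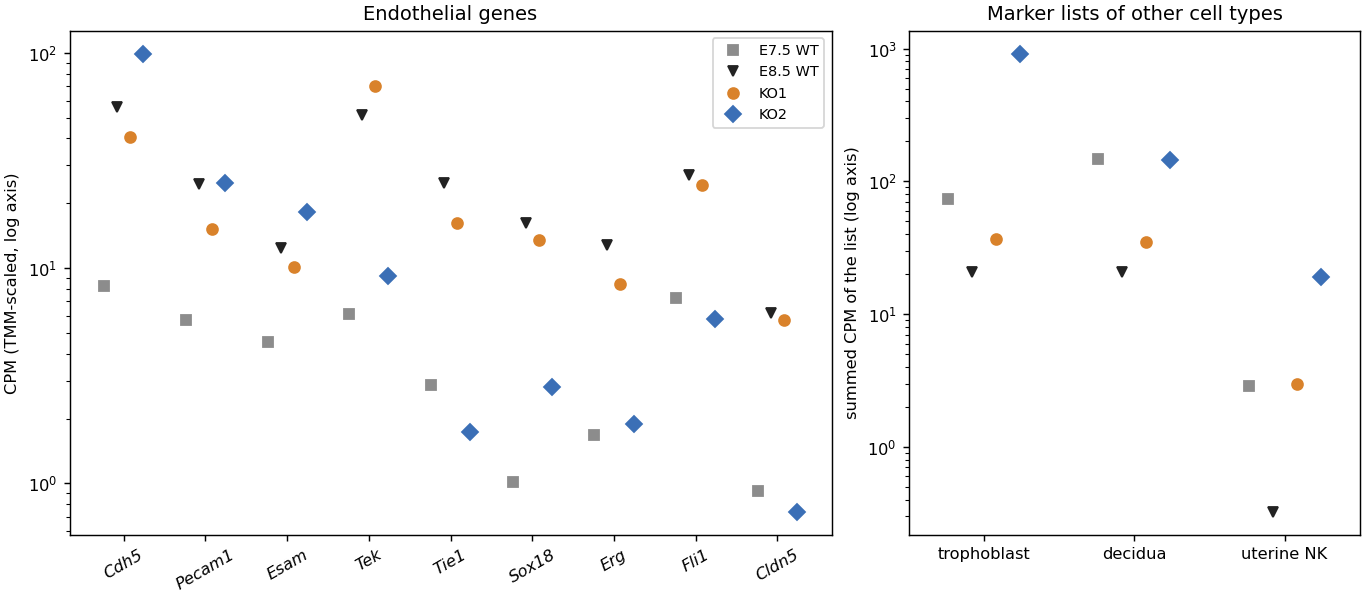
Left, TMM-scaled CPM (log axis) of 9 endothelial genes in the 4 libraries, 1 point per library, of which Esam and Sox18 were chosen after their values were seen. Right, summed CPM (log axis) of the trophoblast, decidua and uterine NK cell marker lists, with trophoblast markers at 908 CPM in KO2. Cdh5, Pecam1 and Esam are as high in KO2 as in E8.5 WT or higher, and Tek, Tie1, Sox18, Erg, Fli1 and Cldn5 are lower in KO2 than in E8.5 WT and KO1.

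The genes whose profiles over the 4 libraries were most like those of Etv2, Tal1 and Cdh5 were found among 11221 other genes with a mean of at least 50 reads, by the distance between centred log2 CPM values. For Etv2 they were Dusp4, Ttc9c, Brca2, Kif15 and A630072M18Rik, at distances of 0.0322 to 0.089. For Tal1 they were Npr1, Igfbp4, Spns2, Pik3c2b and Cpn1, at 0.0877 to 0.208. For Cdh5 they were Slco5a1, Sema3e, Hecw2, Ptpre and 1810041L15Rik, at 0.629 to 0.794. Cdh5 thus had no neighbour as close as those of Etv2 and Tal1, and with 4 libraries the ranking is a description only.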

How the data were processed

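Per the labels and the study's methods, RNA of whole embryos was made into libraries with a stranded poly(A) mRNA kit (KAPA). The same methods state that E8.5 embryos were genotyped from extraembryonic tissue or yolk sac. How much of these tissues each library held is not stated there. The authors trimmed reads with Cutadapt 2.8, mapped them to mm10 with HISAT2 2.1.0 and deposited raw read counts per gene from featureCounts 2.0.0 in stranded mode. The same assembly (GRCm38) gave positions and exon lengths from GENCODE.

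From these counts, TMM factors were computed over the whole table (edgeR 4.0.16), and 14393 genes with at least 10 reads in at least 1 library were kept. The prior count for log2 CPM was 2, and genes were called where both KO libraries differed more than 2-fold from a WT library, and pairwise differences carry no p. The edgeR quasi-likelihood fit used 3 groups, with Benjamini-Hochberg adjustment over all kept genes, and DESeq2 1.42.0 was an alternative. The procedure was tested on simulated data in which both KO libraries shared the same scaled mean for each gene. The KO pools here differed in stage, so that test does not show how the procedure performs on them. Total counts of 8198402 to 12562640 reads set the counting intervals, and without molecular identifiers these cover counting error only.

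The 10 genes and all gene lists were chosen with earlier results of these data known. Values are printed for the 10 genes, list genes past 2-fold in both KO libraries, up to 4 others per list in list order, Ddx6, and the 5 most alike profiles of Etv2, Tal1 and Cdh5. Epb42 was listed but not matched. The values of 1 erythroid gene are not reported here. The KO libraries were treated as replicates, although the 2 pools differed in stage.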

Additional observations from a re-analysis of the deposited data

How the results depend on the processing

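The counts of the 10 genes past 2-fold were recomputed with DESeq2 size factors, plain CPM, a prior count of 0.5, no filter, a minimum of 50 reads and a fold of 1.5. Runx1 joined Gata2 as lower in E8.5 WT than E7.5 WT (2 genes) with DESeq2 size factors, plain CPM and a fold of 1.5 (beside 8.08%, 7.85% and 17.7% of all genes), since it lay at the threshold. With plain CPM, 1 gene instead of 2 was lower than E7.5 WT in both KO libraries (beside 2.43%). A fold of 1.5 gave 2 genes higher than E7.5 WT in both KO libraries (beside 15.9%) and 2 higher in KO2 than KO1 (beside 11.3%). Leaving out KO1 or KO2 gave 1 to 5 genes lower than E8.5 WT and 1 to 4 higher than E7.5 WT. The 5 arose without KO1 (beside 5.91%) and the 4 without KO2 (beside 13.2%). The counts of 1 arose without KO2 against E8.5 WT (beside 3.31%) and without KO1 against E7.5 WT (beside 10.9%). The median against E7.5 WT was 0.21 without KO2 and -0.58 without KO1. Leaving out 1 of 2 KO libraries moves a gene's mean by less than their SD by construction, so it says nothing of stability for single genes. The mean difference of Tek from E8.5 WT, -0.999, was -2.45 without KO1 and 0.46 without KO2, and that of Cdh5, 0.18, was 0.81 and -0.46. Against E7.5 WT, DESeq2 called 2 of the 9 genes with an adjusted p (beside 721 of 11602, 6.21%), and edgeR with no filter called 1 (Cdh5, beside 728 of 18427, 3.95%), whereas edgeR on the filtered genes called 0, and the cause was not tested. Against E8.5 WT those fits called 31 (0.261%) and 8 genes (0.0434%), 0 of the 10. With plain CPM the median difference of all genes lay up to 0.11 from 0 (KO2 against E7.5 WT). No paired analysis was possible because only the KO libraries carry replicate numbers. Depth limits Lyl1 most, with 8 to 50 reads.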

Other observations

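Other ETS factors, relatives of Etv2 and Fli1, lay on both sides of E8.5 WT. Of 23 listed, 21 passed the count minimum, 0 were more than 2-fold lower in both KO libraries (beside 1.79% of all genes) and 2 were higher (beside 3.44% of all genes), namely Elf4 and Spdef, 2.52- and 2.56-fold in KO1 and 2.94- and 2.86-fold in KO2. The medians were 0.05 in KO1 and 0.01 in KO2, and in KO2 alone 6 were more than 2-fold higher and 2 lower (beside 9.41% and 5.91% of all genes). Erg, the close relative of Fli1, had 20 reads at E7.5 and 158 at E8.5 in WT embryos, against 71 in KO1 and 23 in KO2, and was lower in KO2 than in KO1.

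Among 21 blood progenitor, megakaryocyte and macrophage genes, 10 passed the count minimum and 1, Mecom, was more than 2-fold lower than E8.5 WT in both KO libraries (beside 1.79% of all genes). Mecom had 18 reads at E7.5 and 105 at E8.5 in WT embryos, against 29 in KO1 and 32 in KO2. The progenitor and megakaryocyte integrin gene Itga2b had 41 reads at E7.5 and 134 at E8.5 in WT embryos, against 47 in KO1 and 15 in KO2. The receptor gene Kit had 278, 920, 772 and 850 reads, so it was present in both KO libraries. Spi1 and the pan-leukocyte gene Ptprc had 8 reads or fewer in every library. Csf1r, a macrophage receptor gene that trophoblast also expresses and that was chosen after its values were seen, had 36, 15, 11 and 131 reads. Between the KO libraries, Myb, Csf1r, Lyz2 and Coro1a were more than 2-fold higher in KO2 (4 of 10, beside 5.99% of all genes). Itga2b and Meis1 were more than 2-fold lower (2 of 10, beside 4.89%). The part of leukocytes or trophoblast cells in these levels was not tested.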
